A study of Homo sapiens with 6 samples.

Results

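The 38 genes described here encode glucose uptake, glycolysis, lactate production and export, and the transcriptional response to low oxygen. They were picked by NCBI symbol and matched by Entrez ID to the 23459 genes of the count table, and each of the 38 was found there. They were measured by 3′ mRNA-Seq in MCF10A, a human mammary epithelial cell line that is not transformed, grown with serum, insulin, hydrocortisone, cholera toxin and EGF. All 6 libraries carry the genotype label WT in their descriptions. The siCtrl group (3 libraries) had received a non-targeting siRNA and the siYAP/TAZ group (3 libraries) siRNA against YAP and TAZ, the protein encoded by WWTR1. Both groups were transfected with 20 nM siRNA and a lipid reagent, and no label names a treatment with low oxygen or a glucose change. The study asked how JUN, a subunit of AP-1, affects the output of the coactivators YAP and TAZ, and the present comparison sets transcripts of glucose metabolism in cells with less YAP1 and WWTR1 RNA against controls.

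Glucose enters the cell through SLC2A transporters and is phosphorylated by hexokinases. Phosphofructokinase then commits it to glycolysis, whose later steps yield ATP and pyruvate. Pyruvate is reduced to lactate by lactate dehydrogenase and leaves through SLC16A carriers, or it enters the mitochondrion through pyruvate dehydrogenase, which the PDK kinases switch off. HIF1A is the oxygen-regulated transcription factor that raises many of these genes in hypoxia, and EGLN1 and EGLN3 are the prolyl hydroxylases that mark it for destruction when oxygen is present.

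Library totals ranged from 3175149 to 4317286 counts. For a gene with 0 counts, counting error alone leaves room for 3 counts, or 0.680 to 0.992 CPM by library, where CPM is a count relative to the TMM-scaled library total. For 2 libraries, siCtrl replicate 2 and siYAP/TAZ replicate 2, the title and genotype contradict the description, and the description, which is also the column name, was followed. YAP1 (log2 fold change -0.80) and WWTR1 (-0.69) were lower in all 3 libraries described as siYAP/TAZ than in any described as siCtrl, these 2 included. On the first principal component, siCtrl replicate 2 lay at 7.15, away from siCtrl replicates 1 and 3 (-42.6 and -34.9). It was there on the side of siYAP/TAZ replicates 1, 2 and 3 (9.77, 33.7 and 26.9). On the second component siCtrl replicate 2 (-37.8) was far from siYAP/TAZ replicate 1 (23.2). Results that rest on this library are therefore also given without it. All 10 basal epithelial markers that were checked were detected, and their summed level was 2381 to 3061 CPM in siCtrl against 1918 to 2284 CPM in siYAP/TAZ. Of 10 markers of other cell types, COL1A2 and HBB had 0 counts in every library, and the summed level of the 10 was 166 to 187 CPM in siCtrl against 167 to 203 CPM in siYAP/TAZ. The fibroblast marker PDGFRA, with 551 to 683 counts per library, made up most of it. The endothelial marker PECAM1 was low, with 1.72, 1.23 and 1.01 CPM in siCtrl against 3.17, 9.59 and 4.90 CPM in siYAP/TAZ. The groups did not overlap (log2 fold change 2.10, edgeR adjusted p of 0.0785). PECAM1 passed the low-count filter only through siYAP/TAZ, with 14, 29 and 18 counts there against 6, 4 and 4 in siCtrl. The filter thus favoured this direction, and the p-value is no support for it. The part of these markers in the results was not tested. In bulk RNA, fewer cells of a kind and less RNA per cell cannot be told apart.

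Most tested transcripts of the glycolytic chain had intervals that include no difference between siYAP/TAZ and siCtrl, while a phosphofructokinase gene and a HIF target passed the test. The carbonic anhydrase gene CA12 rose to 226% of the siCtrl mean, and the platelet-type phosphofructokinase gene PFKP fell to 61.0% of the siCtrl mean. These were the 1 higher and 1 lower call among the 33 genes that passed the low-count filter, at an adjusted p under 0.05 by edgeR's quasi-likelihood test. Over all 12510 genes tested, 0.743% were called higher and 1.22% lower. The median log2 fold change was 0.040 over the 33 genes and -0.00093 over all genes tested, and 19 of the 33 were higher by sign, beside 49.9% of all genes. The groups did not overlap for 6 of the 33 in the higher direction and 2 in the lower, where 11% and 11.1% of all genes tested did so. At an unadjusted p under 0.05 in edgeR 6 were higher and 2 lower, beside 8.4% and 9.27% of all genes tested.

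**Figure D1:**
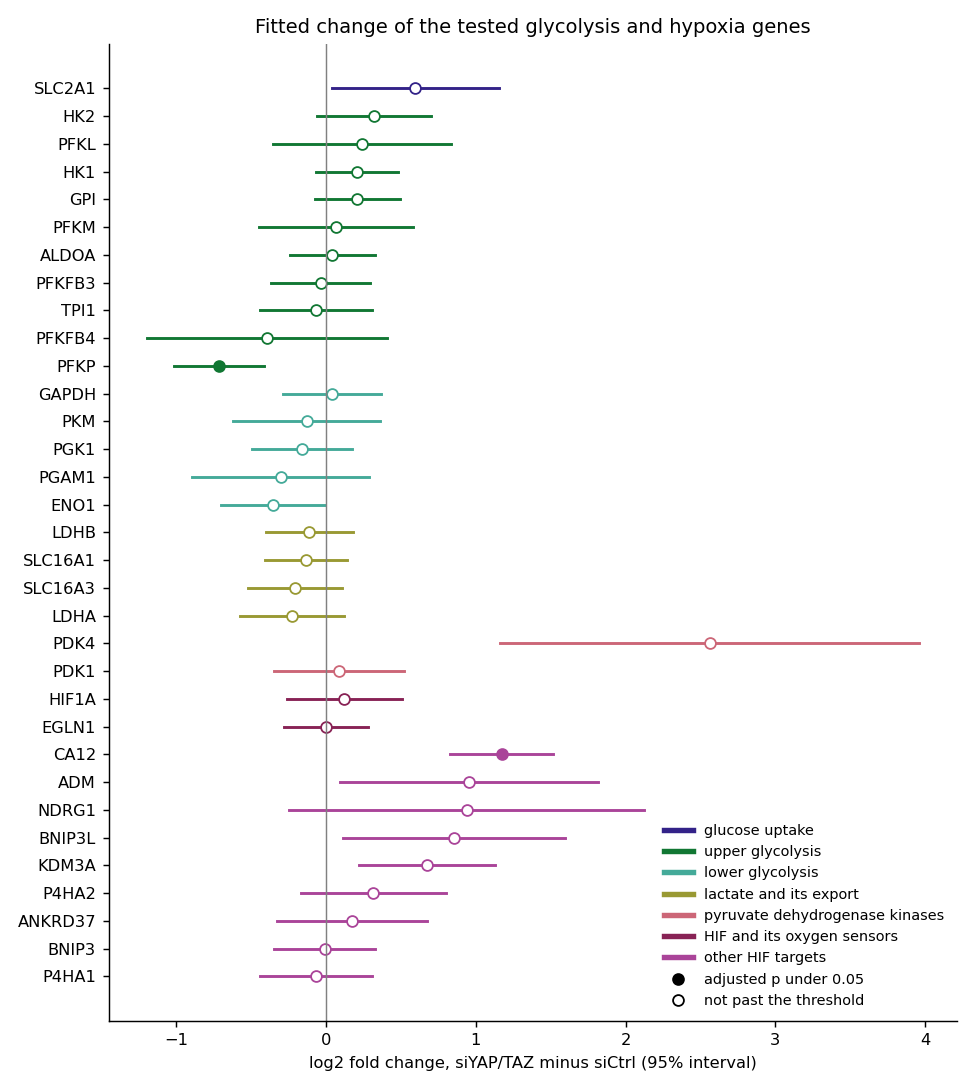
Log2 fold change (x axis, siYAP/TAZ minus siCtrl) of the 33 tested genes with its 95% interval from the edgeR fit, coloured by role. Filled points, CA12 and PFKP, passed an adjusted p of 0.05 in edgeR. The other genes from hexokinase to the lactate carriers lie between -0.39 (PFKFB4) and 0.32 (HK2). Of their intervals, only that of ENO1 (-0.70 to -0.0073) excludes 0. PDK4 has the highest value and the widest interval.

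CA12 encodes a membrane carbonic anhydrase that helps to control pH at the cell surface and is known as a hypoxia-inducible gene. It lies on chromosome 15 of GRCh37, from 63613577 to 63674045 on the minus strand. CA12 had 89.0, 94.7 and 101 CPM in siCtrl replicates 1, 2 and 3 and 175, 218 and 248 CPM in siYAP/TAZ. The lowest siYAP/TAZ library was well above the highest siCtrl library, and the 3 siCtrl libraries were close together. The means were 94.8 ± 5.74 and 214 ± 36.8 CPM (SD, n = 3), and the log2 fold change was 1.17 (SE 0.15, edgeR adjusted p of 0.0101). It did not pass in edgeR without siCtrl replicate 3 (adjusted p of 0.0703) or siYAP/TAZ replicate 3 (0.0691). With the groups of the titles the adjusted p was 0.905. Those groups go against the YAP1 and WWTR1 levels of the libraries with conflicting labels. That value is therefore no measure of how stable the call is.

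CA9, the related carbonic anhydrase gene that is the usual marker of HIF activity, had 0 to 2 counts in each library. CA9 shares 435 exon bases with ARHGEF39 on the opposite strand, which had 21 to 61 counts, so even these counts are uncertain. A difference in CA9 was not detectable at this depth.

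PFKP encodes one of the 3 phosphofructokinase isozymes, which catalyse the committed step of glycolysis. It lies on chromosome 10 of GRCh37, from 3108525 to 3179910 on the plus strand. It had 92.2, 79.6 and 96.5 CPM in siCtrl against 54.4, 55.2 and 54.1 CPM in siYAP/TAZ. Each siYAP/TAZ library was below each siCtrl library, and the siYAP/TAZ libraries were nearly alike, with means of 89.4 ± 8.77 and 54.6 ± 0.562 CPM (SD, n = 3). The log2 fold change was -0.71 (SE 0.13, edgeR adjusted p of 0.0315). The call was lost without siCtrl replicate 1 (adjusted p of 0.0989), siCtrl replicate 3 (0.171) or siYAP/TAZ replicate 1, 2 or 3 (0.0843, 0.109 and 0.172). With any single library left out, the log2 fold change was between -0.79 and -0.66. With the groups of the titles, which the YAP1 and WWTR1 levels go against, the adjusted p in edgeR was 0.898.

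The other phosphofructokinase genes had intervals that include 0. PFKL, the liver-type isozyme, had a log2 fold change of 0.24 (95% interval -0.35 to 0.83), and PFKM, the muscle-type isozyme, of 0.067 (-0.45 to 0.58). PFKM shares exon sequence with SENP1 on the opposite strand, and whether counting used strand is not stated, so its reads are uncertain. As a share of the counts of the 3 genes, PFKP made up 73.8%, 59.6% and 64.6% in siCtrl and 53.9%, 51.7% and 49.9% in siYAP/TAZ. The Wilson 95% intervals of siCtrl replicate 2 (54.9% to 64.1%) and siYAP/TAZ replicate 1 (49.3% to 58.5%) overlap. This share was looked at after the values of PFKP were seen and is given without a test. The counts are of 3′ ends and were not divided by length.

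**Figure D2:**
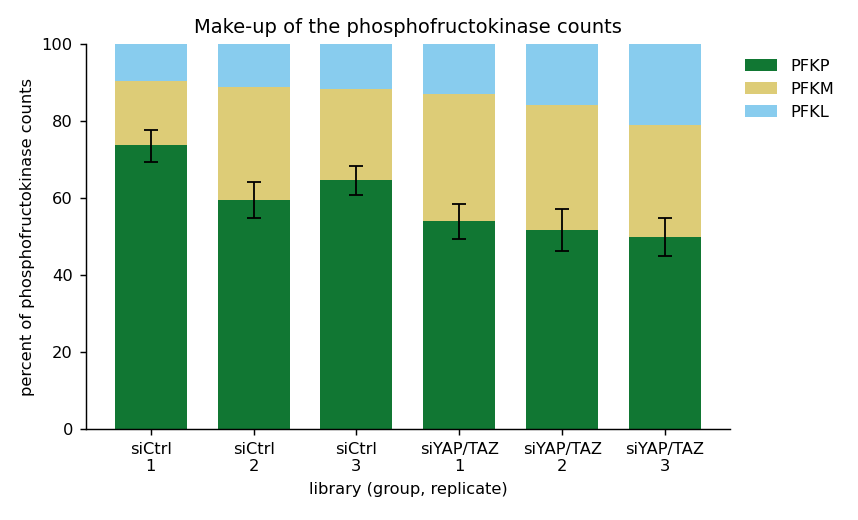
Percent of all phosphofructokinase counts (y axis) from PFKP, PFKM and PFKL in each of the 6 libraries, with the Wilson 95% interval of the PFKP share. PFKP takes 59.6% to 73.8% in siCtrl and 49.9% to 53.9% in siYAP/TAZ.

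The PFKFB genes make or remove fructose 2,6-bisphosphate, the allosteric activator of phosphofructokinase. PFKFB3 had 39.2 to 44.7 CPM in siCtrl against 38.8 to 45.1 CPM in siYAP/TAZ, and its log2 fold change was -0.036 (95% interval -0.37 to 0.30). PFKFB4 was sparse, with 12 to 15 counts in siCtrl against 7 to 14 in siYAP/TAZ, so its interval of -1.19 to 0.41 is wide. Neither gene differed beyond the spread of its libraries.

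PDK4, which inactivates pyruvate dehydrogenase and is known for its induction by fasting and by FOXO and PPAR factors, had the largest fitted difference of the 33 genes. It lies on chromosome 7 of GRCh37, from 95212811 to 95225828 on the minus strand. PDK4 had 28.4, 75.9 and 15.3 CPM in siCtrl against 422, 95.2 and 180 CPM in siYAP/TAZ. The groups did not overlap, but both were scattered: siCtrl replicate 2 was the highest control, and siYAP/TAZ replicate 1 stood far above the other two. The means were 39.9 ± 31.9 and 232 ± 169 CPM (SD, n = 3), and the log2 fold change of 2.56 (SE 0.62) did not pass (edgeR adjusted p of 0.0721). With the replicate number as a block the adjusted p was 0.0156, and without siCtrl replicate 2 it was 0.00445, with a log2 fold change of 3.43. In edgeR the adjusted p of PDK4 was also 0.00557 with no low-count filter and 0.000803 with both libraries with conflicting labels left out. It was 0.192 with robust dispersion. Without siCtrl replicate 3 the edgeR adjusted p was 0.262, with a log2 fold change of 2.16. PDK1, the isozyme known as a HIF target, had 33.6, 38.9 and 43.5 CPM in siCtrl against 34.7, 51.9 and 37.3 CPM in siYAP/TAZ. Its groups overlapped, and its log2 fold change was 0.087 (95% interval -0.35 to 0.52).

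**Figure D3:**
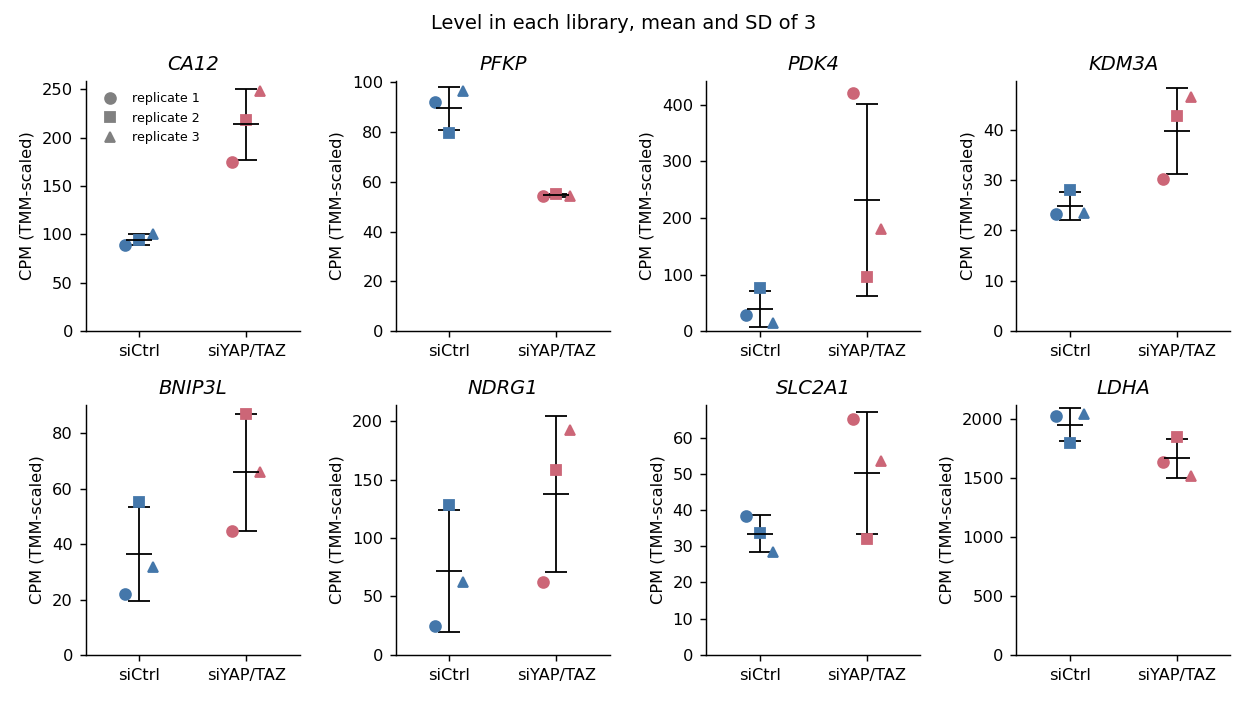
CPM of 8 genes (y axes, each from 0) in the siCtrl (blue) and siYAP/TAZ (red) libraries, with a symbol per replicate number and the mean ± SD of 3 libraries. CA12 and PFKP do not overlap between the groups, and CA12 is more scattered in siYAP/TAZ (SD 36.8 CPM) than in siCtrl (5.74 CPM). PDK4, BNIP3L and NDRG1 are highest within siCtrl in replicate 2.

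Some further HIF targets were higher in siYAP/TAZ and passed only in some fits. KDM3A, a histone H3 lysine 9 demethylase, had 23.3, 28.1 and 23.4 CPM in siCtrl against 30.1, 42.6 and 46.5 CPM in siYAP/TAZ. The groups did not overlap, and the log2 fold change was 0.67 (SE 0.20, edgeR adjusted p of 0.128). BNIP3L, a mitophagy receptor, had 22.1, 55.2 and 31.9 CPM in siCtrl against 44.9, 86.9 and 66.1 CPM in siYAP/TAZ. NDRG1, a stress-responsive gene linked to differentiation, had 25.0, 128 and 62.6 CPM in siCtrl against 62.8, 158 and 192 CPM in siYAP/TAZ. In both genes siCtrl replicate 2 was above siYAP/TAZ replicate 1, so the groups overlapped, and yet within each replicate number the siYAP/TAZ library was the higher one. Their log2 fold changes were 0.85 (SE 0.33, edgeR adjusted p of 0.226) and 0.94 (SE 0.53, 0.389).

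Libraries that share a replicate number were treated as pairs in a block fit, although no label states a pairing. The genes it called higher were 5: CA12, PDK4, BNIP3L, NDRG1 and KDM3A. PFKP was the 1 gene called lower. In that fit 4.66% of all genes tested were higher and 5.44% lower. The adjusted p in edgeR was 0.00386 for BNIP3L, 0.0124 for NDRG1 and 0.0386 for KDM3A, with log2 fold changes of 0.90, 1.06 and 0.66. Without siCtrl replicate 2 the same 5 genes were higher (6.08% of all genes), and PFKP and PGAM1 were lower (6.22%). There the adjusted p was 0.0145 for BNIP3L, 0.0400 for NDRG1 and 0.0423 for KDM3A, and the log2 fold changes were 1.27, 1.64 and 0.77. That library was singled out for its place on the first principal component. Its omission is therefore no independent check of these calls. Without siCtrl replicate 3 instead, the edgeR adjusted p was 0.516 for BNIP3L, 0.655 for NDRG1, 0.392 for KDM3A and 0.262 for PDK4. Markers moved in the block fit and in the fit without siCtrl replicate 2. With the block, 4 of 10 basal epithelial genes were called lower, among them KRT5, EPCAM and LAMB3 (log2 fold changes -0.46, -0.53 and -0.61). PECAM1 was called higher (1 of 3 tested, 2.04, edgeR adjusted p of 0.0245). It had passed the filter only through its siYAP/TAZ counts, so that call is no support for a rise. Without siCtrl replicate 2, LAMB3 and SFN were called lower (2 of 10) and 0 of the other cell type markers passed in edgeR. Their part in these calls was not tested.

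**Figure D4:**
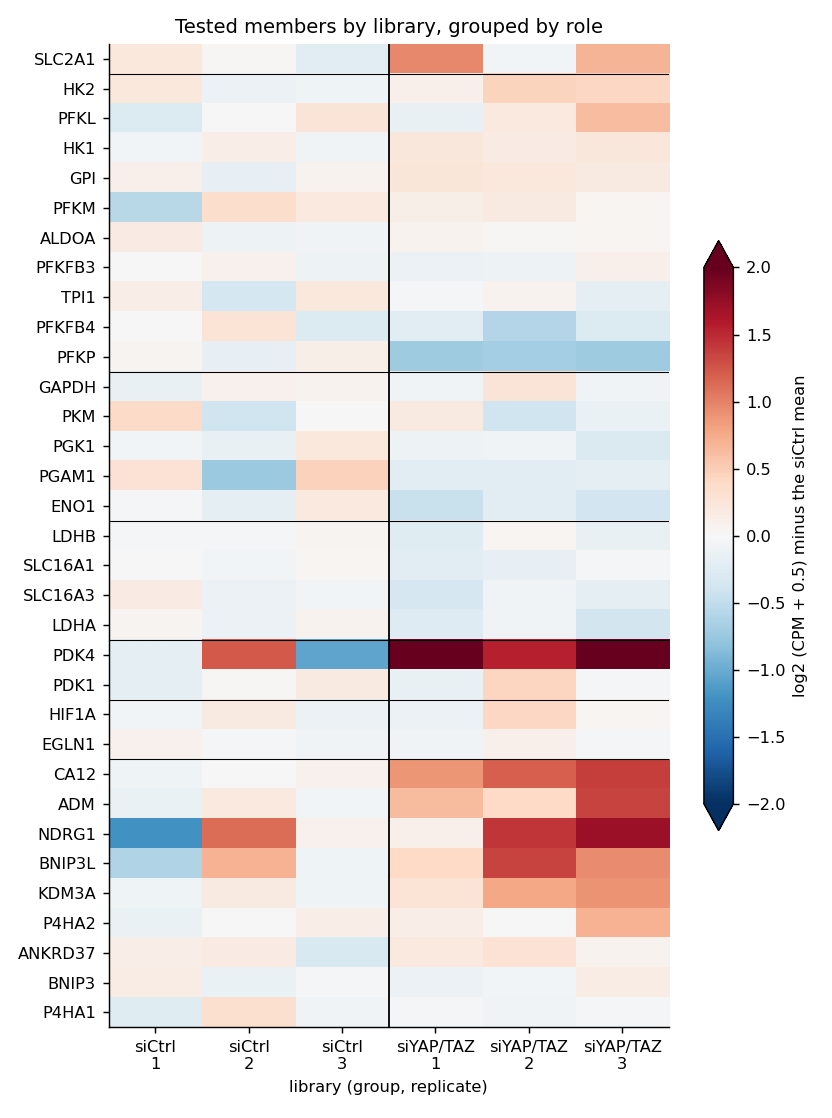
Log2 of CPM plus 0.5 minus the siCtrl mean (colour) for the 33 tested genes (rows, grouped by role) in the 6 libraries (columns). PDK4, NDRG1 and BNIP3L are raised in siCtrl replicate 2 against the other siCtrl libraries as well as in siYAP/TAZ, and PGAM1 is lowered in it.

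The remaining HIF targets passed neither with the replicate block nor without siCtrl replicate 2. ADM, which encodes the vasodilator peptide adrenomedullin, had 9 to 11 counts in siCtrl against 12 to 30 in siYAP/TAZ. The groups did not overlap by CPM, and the log2 fold change was 0.95 (SE 0.38, edgeR adjusted p of 0.240). P4HA1 and P4HA2, the catalytic subunits of collagen prolyl 4-hydroxylase, had log2 fold changes of -0.069 and 0.32 and overlapping groups. BNIP3, the paralog of BNIP3L and a classic HIF target, had 60.0, 49.1 and 53.0 CPM in siCtrl against 49.6, 51.6 and 59.8 CPM in siYAP/TAZ. Its log2 fold change was -0.010 (95% interval -0.35 to 0.32). ANKRD37, another HIF target, had a log2 fold change of 0.18 (95% interval -0.33 to 0.68). It overlaps exons of UFSP2 on the opposite strand, so its reads are uncertain.

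HIF1A itself had 471 to 584 CPM in siCtrl against 473 to 682 CPM in siYAP/TAZ, a log2 fold change of 0.12 (95% interval -0.26 to 0.50). HIF1A activity is set mainly through protein stability, which these RNA counts do not measure. EGLN1 had 90.0 to 101 CPM in siCtrl against 90.0 to 101 CPM in siYAP/TAZ, a log2 fold change of 0.00047 (95% interval -0.28 to 0.28). EGLN3, an oxygen sensor that is also a strong HIF target, had 0, 2 and 2 counts in siCtrl against 6, 5 and 0 in siYAP/TAZ, too few to test.

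For the promoters of these genes, 34 of the 38 were found in the RefSeq table of 250 bases before the gene start (GRCh38.p14). The core of the HIF binding site was searched as ACGTG or GCGTG on both strands. It occurred in 21 of the 34 windows, beside 57.8% of the windows of the 10034 tested genes in the table. CACGTG, an E-box that contains ACGTG on both strands, occurred in 5 of 34 (9.04% of tested genes). The TEAD motif GGAATG occurred in 2 of 34 (9.17%) and the AP-1 motif TGANTCA in 2 of 34 (3.73%). These 5 windows are shown, in lower case with HIF cores in capitals: those of the gene that rose, the gene that fell and the gene with the largest difference, and, for contrast, 2 genes with several cores.

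CA12 (chr15:63674046-63674295 of GRCh37, minus strand): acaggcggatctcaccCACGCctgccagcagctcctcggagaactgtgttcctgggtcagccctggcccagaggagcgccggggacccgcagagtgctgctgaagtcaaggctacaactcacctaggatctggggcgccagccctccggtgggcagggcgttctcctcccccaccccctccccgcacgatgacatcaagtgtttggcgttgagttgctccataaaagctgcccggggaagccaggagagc

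PFKP (chr10:3109912-3110161 of GRCh37, plus strand): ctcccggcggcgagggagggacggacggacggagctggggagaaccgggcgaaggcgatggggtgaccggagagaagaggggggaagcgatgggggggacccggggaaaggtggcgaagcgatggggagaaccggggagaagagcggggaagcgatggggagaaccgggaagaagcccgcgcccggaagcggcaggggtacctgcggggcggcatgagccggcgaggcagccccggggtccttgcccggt

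PDK4 (chr7:95225829-95226078 of GRCh37, minus strand): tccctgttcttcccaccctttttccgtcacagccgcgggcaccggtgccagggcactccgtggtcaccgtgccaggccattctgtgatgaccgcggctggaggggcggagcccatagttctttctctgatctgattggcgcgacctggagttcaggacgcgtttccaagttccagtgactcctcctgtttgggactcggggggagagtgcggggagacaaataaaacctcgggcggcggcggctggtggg

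LDHA (chr11:18415860-18416109 of GRCh37, plus strand): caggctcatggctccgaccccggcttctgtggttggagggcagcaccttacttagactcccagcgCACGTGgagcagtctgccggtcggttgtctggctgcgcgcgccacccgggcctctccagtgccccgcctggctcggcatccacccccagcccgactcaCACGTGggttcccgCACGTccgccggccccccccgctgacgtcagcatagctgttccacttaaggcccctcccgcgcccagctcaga

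BNIP3 (chr10:133795478-133795677 of GRCh37, minus strand, the first 200 bases of its window): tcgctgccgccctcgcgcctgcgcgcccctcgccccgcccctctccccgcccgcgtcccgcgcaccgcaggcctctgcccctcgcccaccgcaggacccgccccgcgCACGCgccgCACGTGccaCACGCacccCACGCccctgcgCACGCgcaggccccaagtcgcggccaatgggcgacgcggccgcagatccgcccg

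The positions come from an exact match of each RefSeq sequence to its chromosome of GRCh37. CA12 held 1 core, which starts 234 bases before the start, and KDM3A, which is not printed, held 1 at 26 bases. PFKP and PDK4 held 0. LDHA, with 5 matches counting both strands of each CACGTG, and BNIP3, with 6, had log2 fold changes of -0.23 and -0.010 and did not pass. The median log2 fold change was 0.040 over the 18 tested genes with a core and -0.0012 over the 12 without. A match of letters is a description and not a binding site, and the gene models of GENCODE start further upstream for PFKP.

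At the entry of glucose, SLC2A1, which encodes the transporter GLUT1, had 38.5, 33.6 and 28.4 CPM in siCtrl against 65.3, 32.1 and 53.6 CPM in siYAP/TAZ. Replicates 1 and 3 of siYAP/TAZ were above all siCtrl libraries and replicate 2 lay among them. The log2 fold change was 0.60 (95% interval 0.036 to 1.16), with an adjusted p of 0.257 in edgeR. It was 0.0256 when both libraries with conflicting labels were left out, where 4 of the described genes were called higher (4.65% of all genes tested) and 2 lower (4.64%). SLC2A3, which encodes GLUT3, had 1 to 4 counts in each library and did not pass the filter.

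Among the 21 genes from hexokinase to the lactate carriers, 19 were tested, and their log2 fold changes ran from -0.71 (PFKP) to 0.32 (HK2) with a median of -0.11. By sign 7 were higher and 12 lower. For 17 of the 19 the 95% interval lay within 1 log2 unit either way, so a change of more than 2-fold is outside their intervals. Without PFKP, the group mean in siYAP/TAZ was 74.5% (PFKFB4) to 125% (HK2) of that in siCtrl.

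In the early steps of the chain, the hexokinase genes HK1 and HK2, which trap glucose as glucose 6-phosphate, had log2 fold changes of 0.21 and 0.32. HK1 had 99.5 to 115 CPM in siCtrl against 118 to 124 CPM in siYAP/TAZ and did not overlap, nor did GPI, the next isomerase, with 169 to 203 CPM and 216 to 226 CPM. Their adjusted p-values in edgeR were 0.409 and 0.428. The aldolase gene ALDOA and the triosephosphate isomerase gene TPI1 had log2 fold changes of 0.040 (95% interval -0.24 to 0.32) and -0.069 (-0.44 to 0.31). TPI1 shares 14 exon bases with SPSB2 on the opposite strand, which had 16 to 40 counts. ALDOC, a second aldolase, had 4 to 15 counts and was not tested.

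In the later steps, ENO1, the ubiquitous enolase, had 1092, 982 and 1270 CPM in siCtrl against 814, 954 and 846 CPM in siYAP/TAZ. Each siYAP/TAZ library was below each siCtrl library, and the log2 fold change was -0.36 (95% interval -0.70 to -0.0073), with an adjusted p of 0.275 in edgeR and 0.104 with the replicate block. GAPDH, often used as a reference gene, had 331, 389 and 387 CPM in siCtrl against 349, 438 and 351 CPM in siYAP/TAZ. Its groups overlapped, with a log2 fold change of 0.040 (95% interval -0.29 to 0.37). PGK1, which makes the first ATP of the pathway, and the pyruvate kinase gene PKM had -0.16 (-0.49 to 0.17) and -0.13 (-0.62 to 0.36). PGK1 shares 97 exon bases with ATP7A on the same strand, which had 56 to 94 counts.

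PGAM1, the phosphoglycerate mutase, had 68.4, 33.3 and 77.1 CPM in siCtrl against 47.8, 48.6 and 49.0 CPM in siYAP/TAZ. The siYAP/TAZ libraries lay between siCtrl replicate 2 and the other two. Its log2 fold change was -0.30 (adjusted p of 0.599 in edgeR) and -0.58 without siCtrl replicate 2 (0.0229). The near-identical retrogene PGAM4 had 27 to 54 counts in siCtrl against 34 to 41 in siYAP/TAZ. Another copy of PGAM1, PGAM1P5, had 19 to 21 counts in siCtrl against 5 to 8 in siYAP/TAZ. Reads of these genes are therefore uncertain. ENO2, the neuronal enolase, had 0 to 4 counts and was not tested.

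At the end of the pathway all 4 genes were lower by sign and 0 passed, with 0 at an unadjusted p under 0.05 in edgeR. LDHA, whose product favours lactate formation, had 2025, 1795 and 2043 CPM in siCtrl against 1636, 1849 and 1521 CPM in siYAP/TAZ. The groups overlapped through replicate 2 of each, and the log2 fold change was -0.23 (95% interval -0.57 to 0.12). LDHB and the lactate carriers SLC16A1 and SLC16A3 had -0.11, -0.13 and -0.21. SLC16A3 shares exon sequence with CSNK1D on the opposite strand, which had 239 to 364 counts, so its reads are uncertain.

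Ratios of paralogs within a library do not depend on scaling, and 5 of them were compared. The mean log2 ratio of LDHB to LDHA was -2.36 ± 0.094 in siCtrl and -2.25 ± 0.10 in siYAP/TAZ (SD, n = 3), a difference of 0.12 (exact permutation test, two-sided, p = 0.20). That of BNIP3L to BNIP3 was -0.67 ± 0.81 and 0.25 ± 0.46, a difference of 0.92 (exact permutation p = 0.30). The differences for HK2 to HK1, SLC16A3 to SLC16A1 and P4HA2 to P4HA1 were 0.11, -0.069 and 0.34, with exact permutation p-values of 0.60, 0.50 and 0.50. With adjustment over the 5 ratios each p was 0.60, and 3 libraries against 3 cannot give less than 0.10. Within replicate numbers, the ratios of BNIP3L to BNIP3, LDHB to LDHA and P4HA2 to P4HA1 were higher in siYAP/TAZ in 3 of 3 pairs. Their exact paired permutation p was 0.25, the smallest that 3 pairs allow, and it was 0.75 for the other two.

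Other genes of the same pathways were taken from 2 lists written from general knowledge. Of 56 genes of glucose metabolism (pentose phosphate pathway, glycogen, pyruvate entry and further transporters), 43 were tested, 0 passed in either direction, and the median log2 fold change was 0.064. At an unadjusted p under 0.05 in edgeR 4 were higher and 1 lower, beside 8.4% and 9.27% of all genes tested. With the replicate block 1 was higher and 1 lower, the glycogen phosphorylases PYGB (log2 fold change 0.52, adjusted p of 0.0400 in edgeR) and PYGL (-0.48, 0.0358), named after their values were seen, as are those that pass only in an alternative fit. Without siCtrl replicate 2 there were 3 higher and 0 lower: the transporter gene SLC2A12 (1.47), the kinase gene PDK2 (2.61) and TXNIP (1.89), an inhibitor of glucose uptake. TXNIP had 83.0, 1313 and 221 CPM in siCtrl against 453, 694 and 546 CPM in siYAP/TAZ, so siCtrl replicate 2 was the highest of all 6 libraries. PDK2 did not pass the low-count filter in the main fit, with 3, 8 and 1 counts in siCtrl against 22, 9 and 8 in siYAP/TAZ. Without siCtrl replicate 2 it passed the filter only through siYAP/TAZ, with 3 and 1 counts left in siCtrl. Its call there is therefore no support for a rise. Of 48 further genes of the HIF pathway and hypoxia response, 40 were tested, 1 was higher and 0 lower, and the median was 0.038 (0.16 without siCtrl replicate 2). At an unadjusted p under 0.05 in edgeR 8 were higher and 4 lower. The gene that rose was BHLHE41, a transcriptional repressor of the circadian clock and a HIF target, with 4.60, 6.17 and 4.52 CPM in siCtrl against 19.0, 17.9 and 40.3 CPM in siYAP/TAZ. Its libraries did not overlap, and its log2 fold change was 2.34 (SE 0.37, edgeR adjusted p of 0.0168). With the replicate block 6 genes of that list were higher and 2 lower, the latter the collagen lysyl hydroxylase gene PLOD2 (-0.61) and the glycoprotein gene STC2 (-0.69). The others higher were MXI1 (0.62), KDM4B (0.64), LOX (0.92), ERRFI1 (1.36) and TFRC (0.43). Without siCtrl replicate 2 there were 7 higher and 3 lower, the latter PLOD2 (-0.88), LOXL2 (-0.95) and ELOC (-0.62). Beside the counts of both lists, 0.743% of all genes tested were higher and 1.22% lower in the main fit. The shares were 4.66% and 5.44% with the block, and 6.08% and 6.22% without siCtrl replicate 2.

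**Figure D5:**
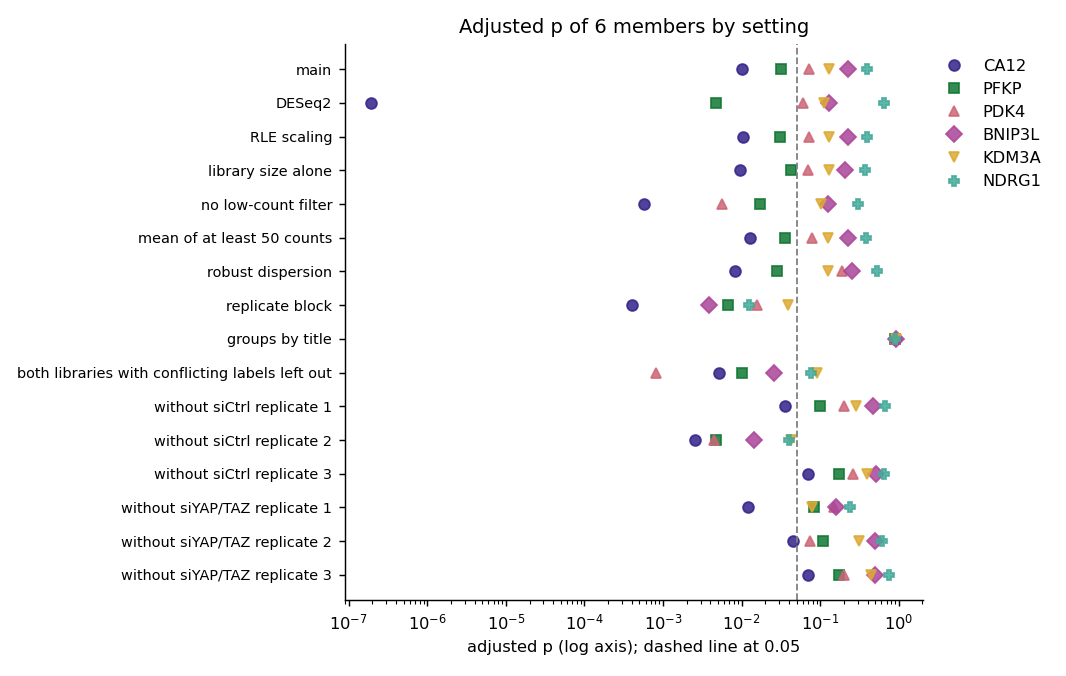
Adjusted p (x axis, log scale) of 6 genes under the main fit and each alternative (rows), with a dashed line at 0.05. CA12 is left of the line in all but 3 rows and PFKP in all but 6. BNIP3L, NDRG1, KDM3A and PDK4 are left of it with the replicate block and without siCtrl replicate 2. PDK4 and BNIP3L are also left of it with both libraries with conflicting labels left out, and PDK4 with no low-count filter.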

How the data were processed

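RNA from MCF10A cells (6 libraries, 3 per group) was made into QuantSeq 3′ libraries. The authors deposited raw counts per Entrez gene, unnormalized. Their processing notes name cutadapt 4.2, Bowtie2 2.3.5.1 and hg19, and the use of strand in counting is not given in the sources used here. Symbols were matched for 23308 of 23459 genes (99.7% of counts). Groups follow the sample descriptions. Genes passing filterByExpr (12510) were tested in edgeR 4.0.16 (R 4.3.3) by the quasi-likelihood F test after TMM scaling, with Benjamini-Hochberg adjustment over all of them and a threshold of 0.05. The fit was tested on simulated data with 200 changed genes. Alternatives were DESeq2 1.42.0, other scalings and filters, robust dispersion, a replicate block, the groups of the titles and omitted libraries. The labels do not state that same-numbered libraries were paired. Their deviations had r = 0.42, 0.35 and 0.13, and those of differently numbered libraries -0.36 to 0.045. These r come from the same counts and are no independent evidence of pairing. Blocked values are printed beside the calls they change. Whether replicates were separate cultures is not stated in the labels, so p-values measure the spread between these libraries. All 38 genes are accounted for, and of the other lists the rule names up to 5 genes per direction past the threshold in the unblocked fit. The genes and lists were chosen with earlier results of these data known. Of the marker lists, 0 of 10 basal and 0 of 3 tested other markers passed in that fit. At an unadjusted p under 0.05 in edgeR 2 were lower and 1 higher there. With the block 4 basal markers were lower and 1 other marker higher. That other marker, PECAM1, passed the filter only through its siYAP/TAZ counts. Wilson intervals cover counting error only.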

Additional observations from a re-analysis of the deposited data

How the results depend on the processing

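The number of all genes called, 245 in edgeR, was 592 with DESeq2, 556 with no low-count filter, 1263 with the replicate block and 1183 with both conflictingly labelled libraries left out. With the groups of the titles, which the YAP1 and WWTR1 levels go against, it was 0 in edgeR, with 464 at an unadjusted p under 0.05. Leaving out 1 library gave 16 (siCtrl replicate 3) to 1579 (siCtrl replicate 2). Of the described genes, 2 were higher with no filter, 5 with the block, 4 with the conflicting libraries left out, 0 by title and 0 to 5 with 1 library left out. Lower were 2, 0 and 0 to 2 in the last 3 of these. Over all genes tested, the shares called higher in the same order were 1.34%, 4.66%, 4.65%, 0% and 0.0473% to 6.08%. The shares called lower in the last 3 were 4.64%, 0% and 0.0788% to 6.22%. The median of the described genes was -0.031 by title and -0.0014 to 0.085 with 1 library left out. The block changed the calls of BNIP3L, KDM3A, NDRG1 and PDK4 and of no other described gene. The cause of these shifts was not tested.

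Of 493 alternative values for the 33 tested genes, 429 kept direction and side of the threshold, 14 newly passed, 9 no longer passed and 41 changed sign, the last in 14 genes. EGLN1 (0.00047) was -0.0013 with DESeq2, -0.00088 with RLE scaling, -0.021 with library size alone, -0.0034 with no filter and -0.00065 with the block, and BNIP3 was 0.0060 with a mean of at least 50 counts. By title the log2 fold changes were HK2 -0.051, GPI -0.027, PFKFB3 0.087, PFKFB4 0.23, ALDOA -0.031, GAPDH -0.086, PDK1 -0.22, HIF1A -0.055, EGLN1 -0.083 and P4HA1 0.22. With the conflicting libraries left out they were PFKFB3 0.041, GAPDH -0.033, PDK1 -0.10, EGLN1 -0.058 and P4HA1 0.12. With 1 library left out they ranged from -0.16 to 0.24 for PFKM, -0.073 to 0.097 for GAPDH, -0.30 to 0.084 for PKM, -0.10 to 0.20 for PDK1, -0.092 to 0.071 for BNIP3, -0.11 to 0.011 for PFKFB3, -0.0042 to 0.13 for ALDOA, -0.049 to 0.046 for EGLN1, -0.19 to 0.11 for P4HA1, -0.22 to 0.036 for TPI1 and -0.041 to 0.23 for HIF1A. The HK2 to HK1 log2 ratio difference was -0.24 by title, -0.096 without the conflicting libraries and -0.0091 to 0.24 with 1 library left out, and that of SLC16A3 to SLC16A1 was -0.15 to 0.0057. The planned ENO2 to ENO1 ratio gave no value, since 1 library had 0 ENO2 counts.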
